A study of Mus musculus with 3 samples.

Results

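The 58 genes described here are a set of 36 genes of mitosis, from Mki67 to Trim59, and 22 genes of S phase, from Pcna to Ung, chosen by name as a list of cell cycle genes and followed through every cell of the series. All 58 were present among the 16178 genes of the filtered expression table. The cells came from the subventricular zone, the niche along the lateral ventricle that holds adult neural stem cells, of male C57BL/6J mice without a transgene or treatment named in the labels. Tissue of 8 mice was used per experiment, cells carrying GLAST, a glutamate transporter of stem cells and astrocytes, were enriched on a magnetic column, and single cells were sorted into plates for SORT-seq, a method in which wells are told apart by barcodes and single transcripts by random identifiers. The series has 1 group of 3 samples, each matched to a library of the deposited per-cell data and called a plate here. Myelin was removed in 2 of the 3 experiments, which the labels do not name. Ages are not given in the labels, and animals were pooled, so no value belongs to a single mouse.

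A dividing cell copies its DNA in S phase and parts the copies in mitosis. S phase genes encode the replication clamp, the helicase that opens the DNA and the enzymes that supply nucleotides, and are largely switched on by E2F factors as a cell leaves G1. Mitosis genes encode condensins, spindle motors, kinases and cyclins, and most peak later, in G2 and mitosis, under a complex that reads a promoter element called CHR. In the adult subventricular zone, most stem cells rest outside the cycle, and activated stem cells and their progeny divide.

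The 3 plates kept 43, 45 and 61 cells, 149 in all, with totals of 297573, 413728 and 478504 estimated transcripts and medians of 4370, 7720 and 7205 per cell. Levels below are in CPM, the estimated transcripts of a gene or list divided by all estimated transcripts of the same cells and multiplied by 1000000; the method counts 1 end of each transcript, so no scaling by gene length was made. The authors' 5 clusters were checked against marker genes. Cluster 1 (36 cells) was highest for 8 of 8 markers of microglia, clusters 0 and 2 (42 and 35 cells) for 9 of 9 of oligodendrocytes, and cluster 3 (30 cells) for 10 of 10 of quiescent stem cells or astrocytes. Cluster 4 was highest for 7 of 7 markers of activated stem cells or progenitors, but Mki67 and Top2a belong to that marker list and to the mitosis list. The label of the samples, neural stem cells, is thus not borne out in clusters 0, 1 and 2, where markers of other cell types lead. Because the clusters were drawn from the same expression values, differences between them are given as description, without a test.

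The promoters of the 2 genes of each list with most transcripts in cluster 4 are shown, because the lists differ in the letters they hold. Of the 58 genes, 49 had a window in the RefSeq promoters of build GRCm38.p6, from 250 bases before to 50 bases after the start, with 55 windows for them. The letters searched, on both strands, were TTTGAA or TTCGAA for the CHR element, CCAAT for the CCAAT box, and TTCCCGC or TTGGCGC or TTCGCGC or TTGCCGC for an E2F-like site. Capitals mark CHR and CCAAT letters in the mitosis promoters and E2F-like letters in the S phase promoters, of which the Pcna window has none, each read 5′ to 3′ on the gene's strand.
Top2a, chr11:99024140-99024439, minus strand: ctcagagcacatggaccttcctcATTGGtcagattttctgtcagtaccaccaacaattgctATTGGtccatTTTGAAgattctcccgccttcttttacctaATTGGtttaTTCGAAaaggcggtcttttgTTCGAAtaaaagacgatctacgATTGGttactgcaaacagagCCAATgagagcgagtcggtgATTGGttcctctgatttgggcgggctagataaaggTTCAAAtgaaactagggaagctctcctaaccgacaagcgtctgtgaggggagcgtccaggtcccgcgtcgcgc
Hmgb2, chr8:57511593-57511892, plus strand: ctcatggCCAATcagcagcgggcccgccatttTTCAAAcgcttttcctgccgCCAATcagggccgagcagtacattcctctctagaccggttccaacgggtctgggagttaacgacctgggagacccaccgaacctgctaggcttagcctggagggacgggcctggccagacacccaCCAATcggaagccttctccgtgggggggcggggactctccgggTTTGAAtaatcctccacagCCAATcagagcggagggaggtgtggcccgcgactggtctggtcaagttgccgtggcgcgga
Pcna, chr2:132253131-132253430, minus strand: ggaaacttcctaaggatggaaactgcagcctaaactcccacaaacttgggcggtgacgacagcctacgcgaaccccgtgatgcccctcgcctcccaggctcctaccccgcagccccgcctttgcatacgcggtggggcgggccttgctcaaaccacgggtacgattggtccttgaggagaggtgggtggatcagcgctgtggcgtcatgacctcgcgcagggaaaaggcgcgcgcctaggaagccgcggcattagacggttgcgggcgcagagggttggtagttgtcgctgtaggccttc
Rrm2, chr12:24708004-24708303, plus strand: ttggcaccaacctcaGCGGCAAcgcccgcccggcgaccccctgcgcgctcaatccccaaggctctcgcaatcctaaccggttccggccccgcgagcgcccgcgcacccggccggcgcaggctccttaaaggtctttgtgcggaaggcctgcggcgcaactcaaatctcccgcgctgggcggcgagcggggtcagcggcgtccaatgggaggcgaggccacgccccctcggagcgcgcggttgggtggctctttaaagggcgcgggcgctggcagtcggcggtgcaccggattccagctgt

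CHR letters were found in 84.8% of the 33 mitosis windows (31 genes), in 13.6% of the 22 S phase windows (18 genes) and in 19.2% of all 32851 windows of the same length. CCAAT letters were found in 84.8% of mitosis windows, 68.2% of S phase windows and 37.4% of all windows. E2F-like letters went the other way, with 24.2% of mitosis windows, 63.6% of S phase windows and 9.57% of all. Both CHR and CCAAT letters stood in 78.8% of mitosis windows, 13.6% of S phase windows and 7.52% of all. The Top2a window held 4 CHR and 6 CCAAT matches, the Hmgb2 window 2 and 4, and the Rrm2 window 1 E2F-like match. The Pcna window held 0 CHR and 0 E2F-like matches and 1 CCAAT match. Such matches are letters in a window, not measured binding.

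Cluster 4, with 5 cells on plate 1, 1 on plate 2 and 0 on plate 3, held most of the transcripts of these genes. Its 6 cells gave 8.47% of all transcripts, yet 2008 of the mitosis transcripts stood in them against 1208 in the other 143 cells, and 702 of the S phase transcripts against 503. For a typical mitosis gene 91.2% of its transcripts were in cluster 4 (median of 36), for a typical S phase gene 62.9% (median of 22), and for a typical gene of the 13898 with a transcript 5.41%. Of the 58 genes, 26 were detected in all 6 cells of cluster 4 and 41 in at least 5 of them, against 874 (6.29%) and 1779 (12.8%) of the 13898 genes. On plate 1, where both kinds of cells can be compared, 35 of 36 mitosis genes and 21 of the 21 S phase genes with a transcript there were at least 4-fold higher in cluster 4 than in the other cells of the plate, against 928 of 12154 genes, or 7.64%. Anln was the exception, and Ung had no transcript on that plate. The cells of cluster 4 were also deeper, with a median of 17377 transcripts against 6334 in the others, so levels and shares at 1 depth are used below.

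**Figure D1:**
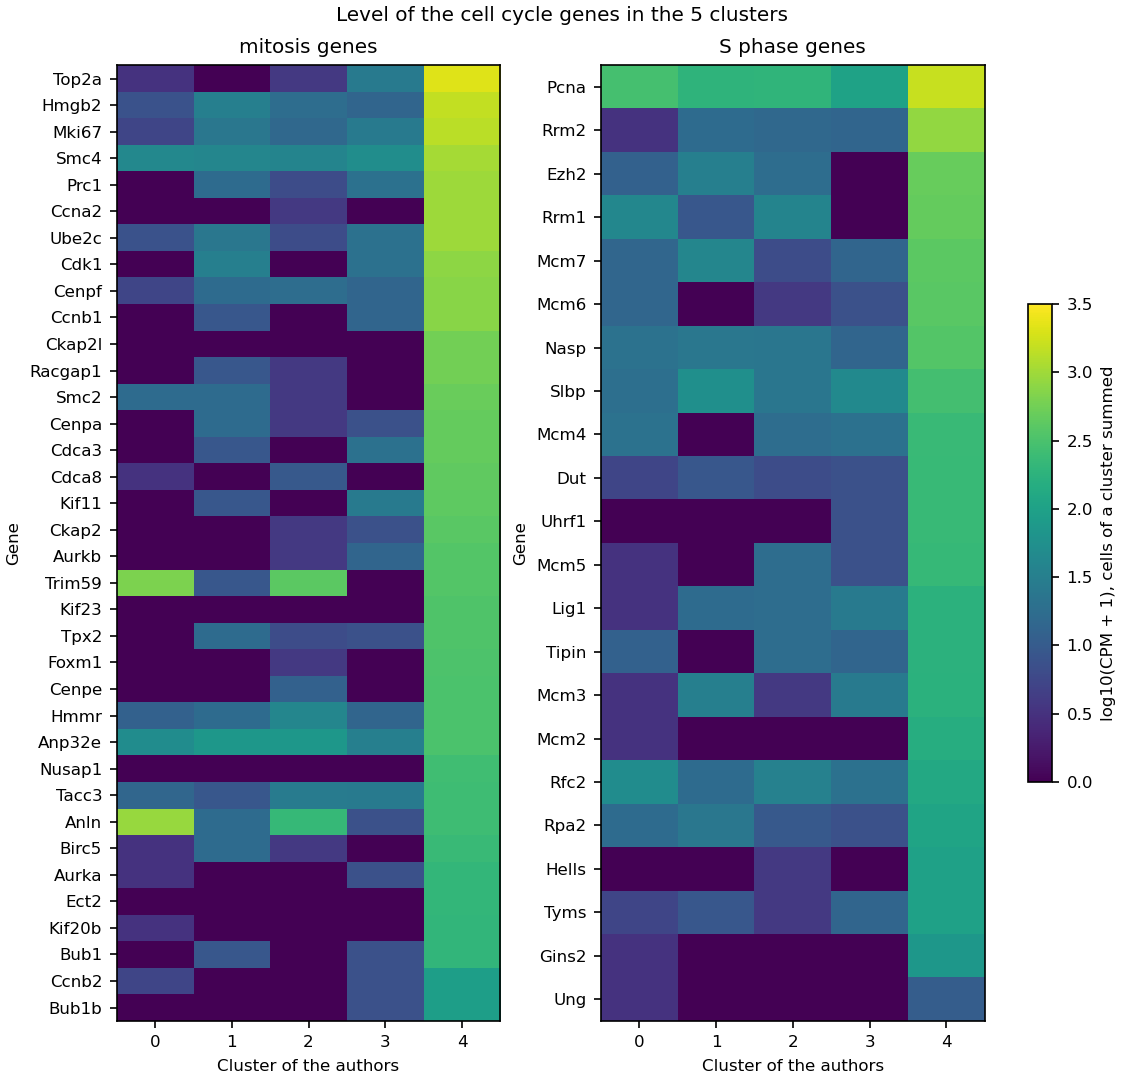
Colour gives the level of each gene, as log10 of CPM + 1 with the cells of a cluster summed, for the 36 mitosis genes (left) and 22 S phase genes (right) in the authors' 5 clusters. Cluster 4 is the brightest column for all genes but Anln and Trim59, which are brightest in cluster 0, and Pcna is visible in every cluster.

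Among the mitosis genes, Top2a, the topoisomerase that untangles copied chromosomes, had the most transcripts in cluster 4, 217, against 6 in 5 of the other 143 cells (2154 and 5.51 CPM, 391-fold). Hmgb2, a chromatin protein of dividing cells, had 154 and 15 transcripts (111-fold), and Mki67, which coats mitotic chromosomes, had 140 and 14 (108-fold). Both were found in 6 of 6 cluster 4 cells, Hmgb2 in 13 and Mki67 in 8 of the other cells. Prc1, which bundles the microtubules of the central spindle, had 99.3 transcripts in cluster 4 and 7 outside (153-fold). Cdk1, the kinase that drives mitosis, had 80.2 and 7 (124-fold), and Ube2c, the ubiquitin enzyme that helps end mitosis, 96.3 and 11 (94.6-fold). Ccna2 and Ccnb1, cyclin partners of Cdk1, had 99.3 and 75.2 transcripts in cluster 4 and only 1 and 3 outside. These genes were close to absent outside cluster 4, in 1 to 13 of 143 cells each.

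4 mitosis genes had 0 transcripts in the 143 other cells. Ckap2l, a spindle protein, had 58.1 transcripts in cluster 4, Kif23, a motor of cell division, 35, Nusap1, which binds spindle microtubules, 27, and Ect2, which sets off the cleavage furrow, 21. Set against a floor of 3 counts over all other cells, they were at least 209-fold, 126-fold, 97.3-fold and 75.7-fold higher in cluster 4. Of all 13898 genes, 261 were at 0 outside cluster 4. At the other end, Smc4, a condensin, was more widely spread, with 106 transcripts in cluster 4 and 45 in 30 other cells (25.5-fold). Anp32e, a histone chaperone, had 32 and 61 in 35 other cells (5.67-fold). Hmmr and Tacc3, both of the spindle, lay between these and the genes above, with 58.2% and 55.3% of their transcripts in cluster 4.

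Among the S phase genes, Pcna, the sliding clamp of DNA replication, had 160 transcripts in cluster 4 and 239 in 76 other cells (1586 and 220 CPM, 7.22-fold). Rrm2, the cell-cycle-bound subunit of ribonucleotide reductase, had 86.2 and 10.0 (93.1-fold), whereas Rrm1, the partner subunit of the same enzyme, had 47.1 and 32 in 19 other cells (15.9-fold). Of the helicase subunits, Mcm6 had 40.1 and 8 transcripts (54.1-fold) and Mcm7 42 and 15 (30.3-fold), while Mcm4 had 24 and 18 (14.4-fold). Ezh2, a histone methyltransferase, had 49.1 and 15 (35.3-fold), Nasp, a histone chaperone, 37 and 22 (18.2-fold), and Slbp, which binds histone messages, 29 and 30.0 (10.4-fold). Rfc2, a subunit of the clamp loader, had more transcripts outside, 39 in 27 cells, than in cluster 4, 13 (3.60-fold by level). Ung, which removes uracil from DNA, had 1 transcript in cluster 4 and 1 outside, too few to compare. No S phase gene was at 0 outside cluster 4. Over 90% of transcripts lay in cluster 4 for 3 of 22 S phase genes and 22 of 36 mitosis genes. Among all genes with a transcript, this held for 325 of 13898.

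The 6 cells of cluster 4 were not alike. The authors called 4 of them, all on plate 1, G2M and the other pair, 1 on plate 1 and 1 on plate 2, S. The G2M cells held 621, 395, 558 and 259 mitosis transcripts, or 34198, 23795, 25254 and 13341 CPM, from 35 or 36 of the 36 genes. The S cells held 120 and 55, or 7604 and 6307 CPM, from 26 and 17 genes, so that every G2M cell lay above both S cells. S phase genes gave 5182, 3438, 7439 and 5613 CPM in the G2M cells and 12583 and 9060 in the S cells, again without overlap but in the opposite order. The S phase list was nonetheless widely present in the G2M cells, which held 18, 14, 19 and 16 of its 22 genes against 19 and 20 in the S cells. The authors' calls rest on genes of this kind, so this order describes the calls and is no test of them.

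Gene by gene, 21 of the 36 mitosis genes were higher in every G2M cell than in both S cells, against 329 of the 8950 genes with a transcript in cluster 4, or 3.68%. Prc1 was at 0 in both S cells and had 30.1, 24.1, 33.1 and 12 transcripts in the G2M cells. Ube2c had 1 transcript in each S cell and 28.1, 23.1, 34.1 and 9.01 in the G2M cells. Top2a was high in all, at 53.3, 45.2, 48.3 and 42.2 transcripts in the G2M cells and 16 and 12 in the S cells, and Hmgb2 lay closer, with 1142 and 1147 CPM in the S cells and 1289 to 2057 in the G2M cells. Cdk1 overlapped, at 11 and 1 transcripts in the S cells and 34.1, 11, 16 and 7.01 in the G2M cells. Smc4 overlapped too, with 317 and 0 CPM in the S cells and 257 to 2325 in the G2M cells.

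Of the 22 S phase genes, 8 were higher in both S cells than in every G2M cell, against 481 of the same 8950 genes, or 5.37%. Pcna stood at 73.6 and 17 transcripts in the S cells (4662 and 1952 CPM) and at 5, 16, 26.1 and 22.1 in the G2M cells (275 to 1181 CPM). Mcm6 stood at 18 and 9.01 transcripts in the S cells and at 0, 0, 10.0 and 3 in the G2M cells, so it was not detected in a pair of cells that held 621 and 395 mitosis transcripts. Slbp was the third of these among the most abundant genes, at 507 and 459 CPM against 110 to 301. The other genes of this kind were Mcm4, Uhrf1, Hells, Rfc2 and Rpa2, named as the rest of the count after their values were seen. Rrm2 did not follow them: the S cells had 951 and 918 CPM and the G2M cells 241 to 1289. Ezh2, Rrm1, Mcm7 and Nasp overlapped likewise. With 2 cells on 1 side, the spread among S cells is hardly known, and 1 of the pair is the sole cluster 4 cell of plate 2.

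**Figure D2:**
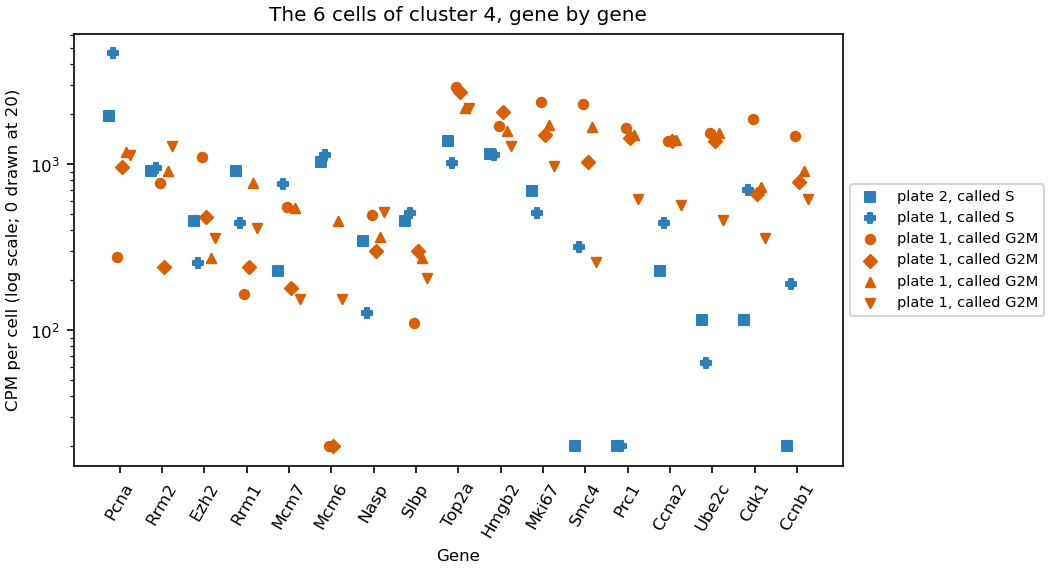
Level of each gene in CPM, on a log scale with 0 drawn at 20, in the 6 cells of cluster 4, blue for those called S and orange for those called G2M; the genes are the 8 most abundant of each list in that cluster and Ccnb1. The S cells lie above all G2M cells for Pcna, Mcm6 and Slbp, and below all of them for Prc1, Ube2c, Mki67 and Top2a.

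Outside cluster 4, the mitosis list split into a pair of genes that followed oligodendrocyte-like cells and 34 genes at a low level throughout. Anln, which encodes anillin, a scaffold of the cleavage furrow also known from myelin, and Trim59, a ubiquitin ligase of the TRIM family, gave 925 of the 1208 mitosis transcripts there, or 76.6%. Clusters 0 and 2 held 99.6% of those 925 transcripts and 73.9% of all transcripts outside cluster 4. Anln was detected in 66 of 77 cells of clusters 0 and 2 and in 3 of 66 cells of clusters 1 and 3, and Trim59 in 73 and 1. By cluster, Anln stood at 913 CPM in cluster 0, 221 in cluster 2 and 258 in cluster 4, and Trim59 at 640, 412 and 367. On plates 1, 2 and 3, Anln in clusters 0 and 2 stood at 400, 542 and 677 CPM, and Trim59 at 445, 548 and 542. Both were at 0 in clusters 1 and 3 of plate 1. Trim59 lies 668 bases from Smc4 on chromosome 3 (GRCm38, Smc4 at 69004738 to 69034623, Trim59 at 69035292 to 69044742); Smc4 was found in 10 cells each of clusters 0 and 2, fewer than Trim59, and whether reads of 1 were counted for the other was not tested.

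The level of the whole mitosis list outside cluster 4 was 696, 1113 and 1285 CPM on plates 1, 2 and 3 (1031 ± 303, SD, n = 3), and it rested on that pair. Without them, a choice made after their values were seen, the list gave 511, 227 and 180 CPM (306 ± 179), with plate 1, the plate with 5 of the 6 cluster 4 cells, highest. The S phase list gave 389, 496 and 464 CPM (450 ± 54.9), with plate 1 lowest. In cluster 4 the mitosis list gave 21211 CPM on plate 1 and 6307 on plate 2, and the S phase list 6770 and 9060. All these levels of cluster 4, summed by plate, thus lay above every summed level outside it, for both lists and on both plates.

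By cluster and with all plates pooled, the 34 mitosis genes without Anln and Trim59 stood at 170 CPM in cluster 0, 377 in cluster 1, 283 in cluster 2 and 369 in cluster 3. The microglia-like and astrocyte-like clusters were thus above the oligodendrocyte-like ones when pooled, but the plates did not give 1 order. Cluster 2 stood at 1274 CPM on plate 1, where 1 of its 3 cells, called G2M, gave 20 of 31 transcripts, and at 220 and 204 on plates 2 and 3. Cluster 3 stood at 436 CPM on plate 1, where it has 25 of its 30 cells, had 0 transcripts in its 1 cell of plate 2, and stood at 44.8 CPM on plate 3. Cluster 1 stood at 472, 339 and 377 CPM. Clusters 1 and 3 together had 442, 322 and 217 CPM on the plates with 5, 1 and 0 cells of cluster 4, with overlapping exact 95% Poisson intervals, for counting error alone, of 346 to 558, 208 to 475 and 104 to 398. On plate 1, cells in wells next to a well of cluster 4 had 722 CPM and the others 332, or 521 and 317 without cells called G2M, where the intervals of 384 to 690 and 220 to 443 overlap. The S phase list without Pcna had 297 and 234 CPM in the same wells, or 217 and 224 without cells called G2M. The part of RNA passed between wells or free in the sorted fluid in these low levels was not tested.

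**Figure D3:**
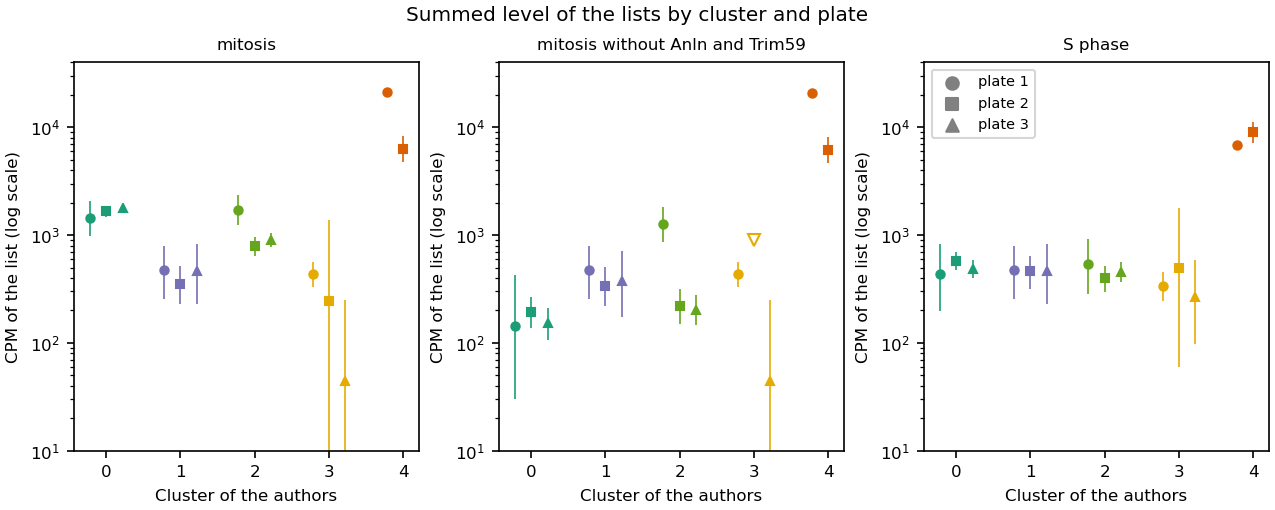
Summed level of the mitosis list, of its 34 genes without Anln and Trim59, and of the S phase list, in CPM on a log scale, by cluster and plate; points are plates, lines are exact 95% Poisson intervals for counting error, cut at 10 CPM, and the open triangle is the upper limit where 0 transcripts were found. Cluster 4 lies above all others in each panel, and clusters 0 and 2 lie above clusters 1 and 3 in the first panel, drawn with Anln and Trim59.

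Pcna carried the S phase list outside cluster 4 in a similar way, with 47.5% of its transcripts there. It was detected in 56 of 77 cells of clusters 0 and 2 and in 20 of 66 cells of clusters 1 and 3. Its levels differed less than those of Anln and Trim59, at 288, 189, 196 and 102 CPM in clusters 0 to 3. On the 3 plates, clusters 0 and 2 had 111, 272 and 243 CPM of Pcna and clusters 1 and 3 had 131, 180 and 108, so the order was turned on plate 1, where clusters 0 and 2 have 4 cells. Rrm1 was at 40.2 and 36.4 CPM in clusters 0 and 2, at 7.86 in cluster 1 and at 0 in cluster 3, and 96.9% of its transcripts outside cluster 4 were in clusters 0 and 2. Mouse has pseudogenes named for Pcna, Nasp, Tyms, Ccnb1 and Ccnb2, and the sources used here do not say how reads shared with them were counted.

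Cells outside cluster 4 rarely held more than a few of these genes. Of the 143 cells, 98 had at least 1 of the 34 mitosis genes without Anln and Trim59 (68.5%, exact 95% binomial interval 60.2 to 76%), 5 had at least 5 and 1 had at least 10. At least 1 S phase gene was found in 120 cells (83.9%, 76.9 to 89.5%), at least 5 in 14 and at least 10 in 0, which allows a share of up to 2.55%. These intervals cover counting error alone, with the cells of 3 plates pooled. On plates 1, 2 and 3 the share with at least 1 of the 34 mitosis genes was 78.9%, 63.6% and 65.6%. For the S phase genes it was 78.9%, 84.1% and 86.9%. Every cell of cluster 4 had 16 or more of the 34 and 14 or more of the S phase genes. A single transcript is therefore common everywhere, while cluster 4 cells hold more genes and transcripts by count. Each had at least 54 transcripts of the 34 mitosis genes and 57 of the S phase genes, against at most 20.0 and 17 in any other cell. These counts are not at 1 depth, and cluster 4 cells were deeper. By level, a shallow cluster 2 cell of plate 1 called G2M had 10040 CPM of the 34 genes. Both S cells of cluster 4 lay below it, at 7160 and 6192. Its 5020 CPM of S phase genes lay above the 3438 of 1 cluster 4 cell.

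At 1 depth, 1000 identifiers per cell, which leaves out 0 cells, the expected share of cells with a transcript of the 34 mitosis genes was 14.5% in cluster 0, 30.4% in cluster 1, 23.8% in cluster 2, 26.6% in cluster 3 and 100% in cluster 4. Before thinning these shares were 69%, 63.9%, 74.3%, 66.7% and 100%, at median depths of 9530, 3455, 8615, 4192 and 17377 transcripts. Cluster 0, with the deepest cells outside cluster 4, thus went from above clusters 1 and 3 to the lowest share. With Anln and Trim59 the shares at 1 depth were 78.3%, 33.3%, 62.4%, 27.4% and 100%. For the S phase list they were 39.8%, 29.3%, 34.1%, 30.2% and 99.4%. Per plate, the expected share outside cluster 4 was 38%, 50.4% and 62.8% for the whole mitosis list and 32.7%, 35.2% and 33.3% for the S phase list. Without Anln and Trim59 the mitosis shares per plate were 35.6%, 19.5% and 18.4%, with plate 1 highest in place of lowest. For the 34 mitosis genes clusters 0, 2 and 3 all lay below the share of the microglia-like cluster 1. For the S phase list cluster 1 was lowest, and cluster 0 highest outside cluster 4. Without Pcna the S phase shares were 21.3%, 21.1%, 23.1% and 22.9% in clusters 0 to 3, so the high place of cluster 0 rested on Pcna.

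**Figure D4:**
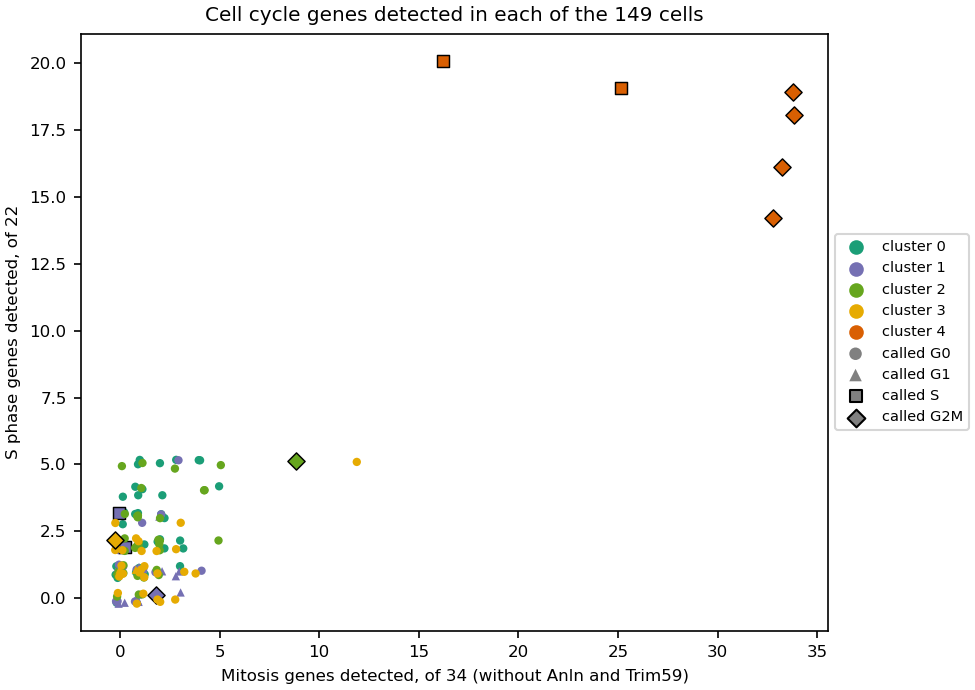
Each of the 149 cells is placed by how many of 34 mitosis genes and 22 S phase genes it holds, with a small random shift so that points can be seen; colour is the cluster, shape the phase called by the authors, and S and G2M calls have a black edge. The 6 cells of cluster 4 lie apart at 14 or more S phase genes, and 2 cells outside it hold 9 and 12 of the mitosis genes.

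The authors called S or G2M in 5 cells outside cluster 4, 4 of them on plate 1, and 1 of these held the lists. That cell, called G2M and placed in cluster 2 on plate 1, had 24 mitosis transcripts of 11 genes and 10.0 S phase transcripts of 5 genes among 1993 transcripts in all, or 12048 and 5020 CPM, within the range of the cluster 4 cells. Mki67 and Rrm2 had 5 transcripts each and Hmmr 4. The cell had 2 transcripts of the 9 oligodendrocyte markers, 32 of quiescent stem cell or astrocyte markers and 19 of activated stem cell markers, among them 7.01 of Ccnd2 and 3 of Dlx2, named after their values were seen. The 19 include 5 of Mki67 and 1 of Top2a, which also belong to the mitosis list. The defining markers of cluster 2 were thus nearly absent from the cell. Its well lies next to 2 wells of cluster 4, and the part of passed RNA in its values was not tested.

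The other 4 called cells held few of the genes. A pair of cluster 1 cells called S had 0 mitosis transcripts and 2 and 8 S phase transcripts, the latter Pcna, Rpa2 and Slbp, with 82.1 and 207 transcripts of microglial markers. A cluster 3 cell called G2M had 0 mitosis transcripts and 2 S phase transcripts. A cluster 1 cell called G2M had 3 mitosis transcripts, of Ube2c and Anp32e, and 0 S phase transcripts. Its markers were mixed, with 15 transcripts of endothelial or mural, 13 of quiescent stem cell or astrocyte and 3 of microglial markers. In these 4 cells the S scores were -0.11 to 0.08 and the G2M scores -0.08 to 0.23, against S scores of 0.92 in both S cells and G2M scores of 0.89 to 1.52 in the G2M cells of cluster 4.

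Cells called G1 and cells called G0 both held the lists at low levels. The 20 G1 cells outside cluster 4, 17 of them in cluster 1, had 320 CPM of S phase genes and 332 of the 34 mitosis genes, and the 118 G0 cells had 458 and 235. In cluster 1 alone, the 17 G1 cells had 387 CPM of the 34 mitosis genes and the 16 G0 cells 378, and for S phase genes 312 and 557. A G0 call did not always mean few genes: a G0 cell of cluster 3 on plate 1 held 12 of the 34 mitosis genes (16 transcripts) and 5 S phase genes, among them Prc1 with 3, Top2a with 2 and Cdk1 with 2 transcripts. It had 142 transcripts of 9 of the 10 quiescent stem cell or astrocyte markers and 14 of activated stem cell markers, its G2M score was 0.09, and its well lies next to 1 well of cluster 4. The 14 include 1 of Mki67 and 2 of Top2a, which also belong to the mitosis list. The other 26 G0 cells of cluster 3 held at most 4 of the 34 genes. Over all 149 cells the authors' S score followed the S phase level (Pearson r 0.96, Spearman rho 0.68) and the G2M score the mitosis level (0.96 and 0.51); the 143 cells outside cluster 4 gave 0.78 and 0.63, and 0.67 and 0.45. These are descriptions over cells that share plates, and the scores are made from genes of this kind.

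The study asked whether autofluorescence, light that cells emit without a label, differs with the state of stem cells, and the lists were compared between cells above and below the median autofluorescence of their plate. All 6 cells of cluster 4 were in the low class, at 448 to 1581 units against plate medians of 1839 and 2160. Values below the plate median were not particular to cluster 4. On plate 1 its median was 1303 units, against 1157 in the 1 cell of cluster 0 and 995 in the 3 of cluster 2. On plate 2 its 1 cell stood at 787, against medians of 1713 and 1127 in clusters 0 and 2. Cluster 1 had medians of 4929 and 5397 on these plates. The cells of cluster 4 gave 53.4% of the transcripts of the low class on plate 1, 4.04% on plate 2 and 0 on plate 3. The mitosis list stood at 384, 932 and 1241 CPM in the high class and 11877, 1488 and 1333 in the low class of plates 1, 2 and 3. The S phase list stood at 216, 460 and 497 CPM in the high class and 3922, 876 and 428 in the low. In such sums, fewer cells of a type and less RNA per cell cannot be told apart. The low class was higher by far on plate 1, less so on plate 2, and on plate 3, without cluster 4, the S phase list went the other way. Without Pcna, the list had 204 CPM in the high and 266 in the low class of plate 3. Without cluster 4, the mitosis list stood at 1183, 1285 and 1333 CPM in the low class and the S phase list at 660, 531 and 428. The 34 mitosis genes without Anln and Trim59 then stood at 336, 278 and 168 CPM in the high class and 784, 179 and 192 in the low, so on plate 2 the high class had more. The 784 CPM on plate 1 came from 63 transcripts. Of these, the cluster 2 cell called G2M gave 20.0, and the cluster 3 cell called G0 with 12 mitosis genes gave 16.

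**Figure D5:**
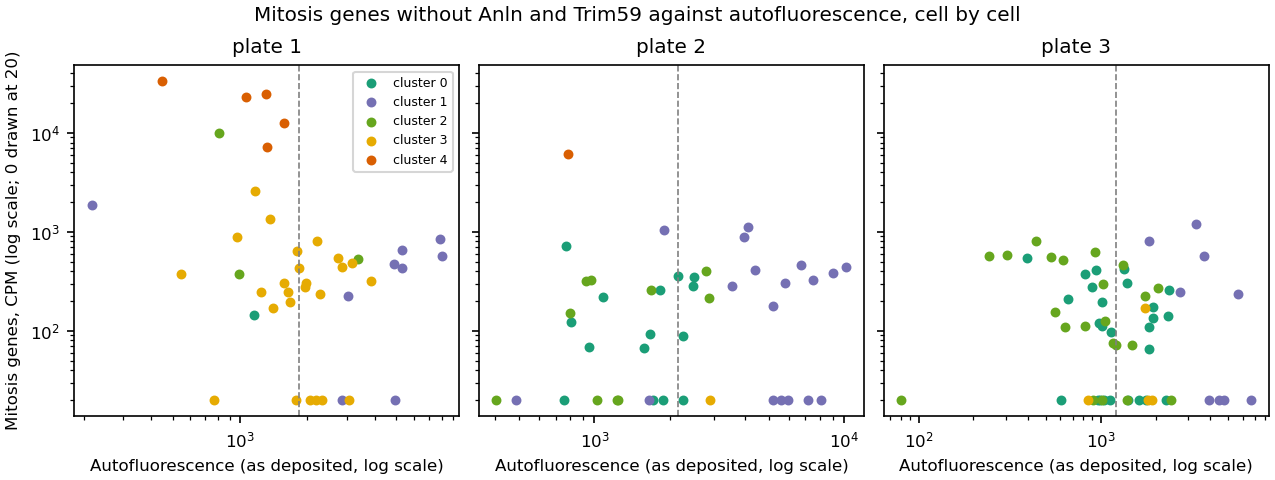
Level of the 34 mitosis genes without Anln and Trim59 in each cell, in CPM on a log scale with 0 drawn at 20, against autofluorescence as deposited, on a log scale, for the 3 plates; dashed lines are plate medians and colours are clusters. The cluster 4 cells are high on the vertical axis and left of the median on plates 1 and 2, and the microglia-like cells of cluster 1 reach the highest autofluorescence.

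By edgeR's quasi-likelihood test on transcripts summed per plate and class, with plate as a block, 145 of 3723 genes were higher in the high class, 3.89%, and 5 were lower, 0.134%. Only 5 of the 58 cell cycle genes had enough transcripts to be tested, and 0 of them passed after Benjamini-Hochberg adjustment, with 2 at an unadjusted p under 0.05. All 5 had a value below 0 for high minus low, and their median of -0.96, the value of Pcna, compares with -0.04 over all genes tested. Because the low class held all cells of cluster 4, this shared direction adds no support. Without plate 1, the median of the 6 tested was -0.27, with 4 below 0. In cells outside cluster 4, that of the 4 tested was -0.42, with 4 below 0. Trim59 came closest, at 40.0, 253 and 397 CPM in the high class and 302, 598 and 594 in the low class, lower in the high class on 3 of 3 plates (log2 difference -1.32, SE 0.39, adjusted p = 0.0668). Rrm1 stood at 0, 25.3 and 36.1 CPM against 226, 64.9 and 52.4, also lower on 3 of 3 (-1.92, SE 0.66, adjusted p = 0.145). On plate 1 Rrm1 had 0 transcripts outside cluster 4, so its low-class level there came from cluster 4 alone. In cells outside cluster 4 Rrm1 had too few transcripts to be tested, so its value adds no support. Pcna stood at 64, 228 and 293 against 933, 348 and 162, lower on 2 of 3 (-0.96, SE 0.56, adjusted p = 0.585). Anp32e (-0.91, SE 0.52) and Anln (-0.67, SE 0.49) were also lower on 2 of 3 plates, with adjusted p of 0.577 and 0.720.

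The count of cell cycle genes called depended on which plates, cells and filter were used. Without plate 3, whose cells include none of cluster 4, 7 of 9 genes tested were lower in the high class (all genes 0.627%): Top2a, Hmgb2, Smc4, Mcm6, Pcna, Rrm1 and Trim59. Top2a had 0 transcripts in the high class of plates 1 and 2, Hmgb2 2 on each, and Mcm6 1 and 0, so these passed the filter through the low class, and their calls add no support. Rrm1 and Smc4 likewise had too few transcripts to be tested in cells outside cluster 4. Without plate 1, Trim59 alone of 6 passed (log2 difference -0.87, adjusted p = 0.0282; all genes lower 0.474%). With no filter on low counts, 22 of 58 were lower (all genes 0.417%), and DESeq2 called 2 lower, Hmgb2 and Rrm2 (all genes lower 0.036%). Both fits include cluster 4, whose cells were all in the low class, so these counts add no support. Rrm2 had 3 transcripts in the high class and 93.2 in the low, of which 86.2 were in cluster 4. Of the 22, Top2a, Ccna2, Ckap2l, Kif23 and Nusap1 had 0 transcripts in the high class. In cells outside cluster 4, 1 of 4 genes tested was lower, Trim59 (-1.09, adjusted p = 0.0404; all genes lower 0.324%), while Pcna gave -0.12. Cluster 1, where Trim59 had 1 transcript in all, put 8 of 9, 15 of 18 and 9 of 9 of its cells in the high class, and with the classes made within plate and cluster Trim59 gave -0.37 (adjusted p = 0.957). With those classes, 0 of 8 passed, and 0 of 3540 genes did. An unadjusted p under 0.05 was found for 186 genes and for 2 of the 8, Hmgb2 and Top2a. Cluster 4 was split unevenly by these classes. Its high class held the S cell of plate 1 and the G2M cell with 259 mitosis transcripts, and its low class the others. Hmgb2 and Top2a had too few transcripts to be tested outside cluster 4, so these values add no support.

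Other cell cycle genes, taken from a list of G1, further S phase and further G2 and mitosis genes, were also mostly highest in cluster 4. Of all 13898 genes, 27.8% were highest there and 5.53% had more than 50% of their transcripts there. Of 29 further S phase genes present, 29 were highest there and 20 had more than 50% of their transcripts there, and of 32 further G2 and mitosis genes 31 and 24. Pttg1, named after its values were seen, was the exception, highest in cluster 0, with 5 transcripts in cluster 4 and 104 outside. Of 24 cyclins, kinases, inhibitors and E2F factors of G1, 15 were highest in cluster 4 and 8 had more than 50% there. Of the others, 2 were highest in cluster 0, 2 in cluster 1 and 3 in cluster 3, and the rest had no transcript. Ccnd2, a D-type cyclin that admits cells to the cycle, had 365 transcripts in cluster 4 and 34 outside, more in cluster 4 than any of the 58 genes. Its kinase partner Cdk4 had 83.2 and 91, so it was spread more widely. Tmpo and Tubb4b, a nuclear envelope protein and a tubulin, had 84.2 and 63.1 in cluster 4 and 76 and 147 outside. Ncapd2, Cks2, Nuf2 and Spc25, of the condensin, the cyclin-dependent kinases and the kinetochore, had 49.1 to 52.1 in cluster 4 and 3 to 17 outside. Of the 14 of these genes tested between autofluorescence classes by edgeR, 1 passed: Ccnd2 was lower in the high class (log2 difference -3.98, SE 0.71, adjusted p = 0.000986). That call was lost without plate 2 (adjusted p = 0.240), in DESeq2 (0.941), without the plate block (0.803) and with classes within plate and cluster (-0.64, adjusted p = 0.957). Without plate 1, or outside cluster 4, Ccnd2 had too few transcripts to be tested. It thus passed the filter through cluster 4, whose cells were all in the low class, and its call adds no support.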

How the data were processed

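Expression was measured in single cells on 3 plates. The deposited tables hold expected counts: the authors estimated transcript numbers from random identifiers; inverting the correction for collisions among 4096 identifiers gave whole numbers for 100% of 349688 values above 0, within 1e-06. Of tools, the submitters' processing notes list Seurat 4.1.1, BWA 0.7.15 and R 4.2.0; they list mm10 and hg19 as builds, with no roles. The authors' filtered table keeps 149 of 235 wells by a rule not given in the sources used here. Autofluorescence is an intensity that the authors deposited per cell, the S, G2M, G1 and G0 scores are the authors' scores, and the genes detected per cell are the authors' deposited counts. Of the authors' columns per cell, 8 went unused. Library names were matched to plates by their final digit, a pairing that no label states. No doublet caller was run. Well names recur between plates (50 are used on more than 1), as the plates use 1 barcode set.

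Transcripts were summed within plates, over the cells of a cluster or of an autofluorescence class, and sums by class were rounded for edgeR 4.0.16 (R 4.3.3; TMM, filter on low counts, quasi-likelihood F test, plate block, Benjamini-Hochberg at 0.05), which was tested on simulated data. The block was chosen because both classes come from each plate, and p-values then measure the spread left after plate and class. Shares at 1 depth are hypergeometric expectations, without a draw. Alternatives were other scaling, DESeq2 1.42.0, no filter, no block, identifier counts, each plate left out, cells outside cluster 4, classes within clusters, other depths and, chosen after seeing the data, lists without Anln and Trim59 or without Pcna.

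The genes and lists were chosen with earlier results of these data known. Named are, per list, the 8 genes with most transcripts in and the 8 outside cluster 4, those at 0 in either, those tested by autofluorescence, and Mki67, Top2a, Pcna, Cdk1 and Ccnb1; of other cell cycle genes the 8 with most transcripts in cluster 4 and those past the threshold. Other names are said to be chosen after their values were seen. Intervals and limits cover counting error only.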

Additional observations from a re-analysis of the deposited data

Results flagged for a closer look

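The 86 wells that the filtered table leaves out were used in no comparison, and 5 sums of the lists in them came to more than the 3 counts taken as the floor. Mitosis transcripts in these wells numbered 8 on plate 1, 10 on plate 2 and 4 on plate 3, and S phase transcripts 6 on plate 1 and 6 on plate 3. On plate 1 the mitosis transcripts were of Mki67, Birc5, Ccnb2, Cenpf, Nusap1 and Prc1, named after their values were seen, and gave 2285 CPM of the 3502 transcripts in 20 wells (exact 95% Poisson interval 986 to 4501), against 442 CPM in clusters 1 and 3 of the same plate. Of the 10 on plate 2, 4 were of Anln and 2 of Trim59. Nusap1 was among the 4 genes at 0 in the kept cells outside cluster 4.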

How the results depend on the processing

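The number of cell cycle genes called between autofluorescence classes, 0 by edgeR, was 2 with DESeq2, 22 with no filter on low counts and 1 in cells outside cluster 4, and ranged from 0 to 7 when a plate was left out. It was 0 with RLE scaling, with recovered identifier counts, with classes within plate and cluster, and without the replicate block, where 0 of 3723 genes passed, against 145 higher and 5 lower with it. Each plate gave both classes, so plate pairs them by construction. With a plate left out, the log2 difference of Pcna ranged from -2.10 to 0.12 and that of Anln from -1.56 to 0.072, both above 0 without plate 1; with classes within plate and cluster Pcna reversed to 0.28. The cause was not tested.

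Levels moved by less than 1 SD over plates under identifier counts and under a mean of the cells' own levels. With a plate left out, the mitosis level in cluster 4, 13759 CPM, ranged from 6307 without plate 1 to 21211 without plate 2, the S phase level there from 6770 to 9060, and the levels outside it from 904 to 1199 and from 427 to 480. Without Anln and Trim59 the mitosis level outside cluster 4 was 306 CPM in place of 1031; without Pcna the S phase level was 246 in place of 450 outside cluster 4 and 6163 in place of 7915 in it. Averaged over plates, the share of cells outside cluster 4 with a mitosis transcript, 50.4%, was 68.0% at 2000 identifiers, 83.6% with no thinning, 23.2% for at least 2 transcripts and 24.5% without Anln and Trim59. The S phase share, 33.7%, was 54.0%, 83.3% and 8.41% under the first 3 of these and 22.3% without Pcna. These shares follow depth by construction.

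Cluster 4 has 6 cells, and plate 3 none, so nothing about it has a replicate check beyond 1 cell on plate 2. With edgeR's filter on low counts, 5 of the 58 genes were tested by autofluorescence, and with no filter all 58.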
